A study of Mus musculus with 12 samples.

Results

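The immunity-related GTPases (IRGs) of mouse are interferon-induced enzymes that defend single cells against microbes living in vacuoles. The 8 genes described here, Irgm1, Irgm2, Igtp, Iigp1, Tgtp1, Tgtp2, Ifi47 and Gm4951, were taken by name from the 20143 genes of a liver RNA sequencing table, and all 8 were found in it. The livers came from 6 wild-type mice (WT) and 6 Hsd17b13-KO mice (KO), each sequenced as its own library; the labels number the mice 1 to 6 within a genotype. Hsd17b13 encodes an enzyme on the lipid droplets of hepatocytes. Every mouse, WT and KO, was 8 to 10 weeks old at the start and ate CDAA-HFD for 12 weeks. This high-fat diet lacks choline and supplies amino acids in place of protein, and it produces a fatty, inflamed and scarred liver. No mouse on another diet is in the series, so both groups share the diet. The sources used here give no strain, sex or litter, and do not say where in the gene the deletion lies. The series title concerns interferon signalling and fibrosis, and its single comparison is KO against WT.

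IRG proteins fall into 2 classes by the loop that binds the phosphates of GTP. Irgm1, Irgm2 and Igtp (also called Irgm3) carry a methionine in that loop and are known as the GMS class. They sit on the cell's own membranes and hold the other class inactive. Iigp1 (Irga6), Tgtp1 and Tgtp2 (Irgb6), Ifi47 (Irgd) and Gm4951 carry the usual lysine, the GKS class, whose studied members load onto the vacuoles of microbes and break them open. Interferon-gamma, acting through its receptor and the kinases Jak1 and Jak2, is the classical inducer of the family, and type I interferons also raise it. In mouse liver Iigp1 is known to be made without infection as well, from a promoter of its own.

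The loop sets the classes apart in the genes themselves, and the 24 bases that encode it are shown for the members on chromosome 11, read 5′ to 3′ from the GENCODE M21 transcripts (mm10). Capitals mark the codon that separates the classes, ATG for methionine or AAG for lysine. The stretch of Irgm1 is chr11:48866761-48866784 on the minus strand, that of Irgm2 chr11:58219695-58219718 on the plus strand and that of Igtp chr11:58206275-58206298 on the plus strand. Those of Tgtp1 (chr11:48987667-48987690) and Tgtp2 (chr11:49059534-49059557) are on the minus strand, and that of Ifi47 (chr11:49095648-49095671) is on the plus strand.
Irgm1: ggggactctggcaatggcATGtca
Irgm2: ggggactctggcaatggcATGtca
Igtp: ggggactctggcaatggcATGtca
Tgtp1: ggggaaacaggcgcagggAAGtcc
Tgtp2: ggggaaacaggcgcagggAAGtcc
Ifi47: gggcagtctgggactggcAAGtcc
The 3 GMS genes share these bases letter for letter, and so do Tgtp1 and Tgtp2. The codon in capitals is number 89 of the coding sequence in Irgm1, 77 in Irgm2, 97 in Igtp, 69 in both Tgtp genes and 87 in Ifi47. In Iigp1 and Gm4951 the same codon is AAG, number 82 and 81.

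The promoters of 5 of the 6 members on chromosome 11 hold sequence elements through which interferons are known to act. They are shown as a description, and their part in the levels measured here was not tested. The windows searched were RefSeq promoters (GRCm38.p6) from 250 bases before to 50 after a gene's start, which the reference held for 6 of the 8 members. The motifs were TTCNNNGAA, the gamma-activated site (GAS), and the core of the interferon-stimulated response element (ISRE), which is GAAA, any 2 bases and GAAA again, each on both strands. In the lines that follow each match is in capitals, with 20 bases on either side.
Irgm1: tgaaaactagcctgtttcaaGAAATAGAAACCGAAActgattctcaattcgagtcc
Irgm2: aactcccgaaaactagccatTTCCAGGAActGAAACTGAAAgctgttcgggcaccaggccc
Igtp: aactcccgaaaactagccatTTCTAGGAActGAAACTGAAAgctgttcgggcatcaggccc
Tgtp1: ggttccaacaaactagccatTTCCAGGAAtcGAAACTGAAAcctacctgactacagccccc
Tgtp2: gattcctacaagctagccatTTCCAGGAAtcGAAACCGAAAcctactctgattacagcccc
Irgm1 (chr11:48871415-48871470, minus strand) held 2 overlapping ISRE matches and no GAS match. Irgm2 (chr11:58214882-58214942, plus), Igtp (chr11:58199491-58199551, plus), Tgtp1 (chr11:48992294-48992354, minus) and Tgtp2 (chr11:49064253-49064313, minus) each held a GAS match followed by an ISRE match that began 11 bases after it. Counted from the RefSeq start, the first match began 30 bases before that of Irgm1, 75 before Irgm2, 45 before Igtp, 88 before Tgtp1 and 81 before Tgtp2. The RefSeq starts of Irgm1, Irgm2 and Tgtp1 lie inside the longer GENCODE spans of these genes and so do these windows. The window of Ifi47 held neither motif. It surrounds the outermost GENCODE start of that gene (49076587), far from the loop bases at 49095648. Any start nearer the coding sequence was not searched, so the gene may hold the motifs elsewhere. Of 32851 promoters of this length, 8.30% held a GAS match, 3.44% an ISRE match and 0.454% both, against 4, 5 and 4 of the 6 members. The windows of Igtp and Irgm2 are much alike, as are those of Tgtp1 and Tgtp2, so these 4 do not count as independent promoters. The motifs are not particular to the IRG genes. Of 6 promoters of guanylate-binding proteins, another interferon-induced family, 5 held an ISRE match and 2 a GAS match. A match describes these letters and does not show that a factor binds there.

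Levels are in CPM, read counts scaled so that each library sums to 1000000. By the smallest step between low values 1 CPM stood for 46.3 to 77.9 counts. The least abundant IRG value, Tgtp2 in WT mouse 4, therefore rested on about 483 counts (counting error 4.55%). PCR copies, which carry no molecular tags here, and the sharing of reads with Tgtp1, described below, add error beyond this. Hsd17b13 itself was at 347 ± 36.04 CPM in WT (SD, n = 6) and 1.18 ± 0.181 in KO, and every library followed its genotype label. Markers of hepatocytes were present in every library, with 9 of 10 measured and sums of 70095 to 91422 CPM in WT and 70899 to 87675 in KO. The labels name 6 mice per group, and the p-values measure the spread between these mice.

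The genes lie in 3 blocks, none on chromosome 5, which carries Hsd17b13. On chromosome 11 (mm10, protein coding in GENCODE M21) are Irgm1 (48861968 to 48871683), Tgtp1 (48985327 to 48994172), Tgtp2 (49057194 to 49064206) and Ifi47 (49076587 to 49096974), within 235 kb. Igtp (58199556 to 58207591) and Irgm2 (58199618 to 58222782) form another block of 23 kb on that chromosome. Gm4951 (60212080 to 60247820) and Iigp1 (60376027 to 60392634) lie within 181 kb of each other's outer ends on chromosome 18. The pairs Tgtp1 with Tgtp2 and Igtp with Irgm2 limit what the counts can separate. The Tgtp1 and Tgtp2 transcripts are 99.75% identical over 2811 bases, so reads of one can be given to the other. One annotated Irgm2 transcript starts inside Igtp, and the genes share 162 exon bases on the same strand. Exon overlaps with genes of low level link Tgtp1 with Gm12185 (223 exon bases) and Ifi47 with Olfr56 (111), both at a mean of 1.26 CPM or less.

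All 8 IRG transcripts had higher means in KO liver, by 1.28 to 2.24 times (positive differences in 45.6% of all genes), and none passed the test over all genes. Of the members 0 of 8 passed limma's adjusted p of 0.05, where 0.152% of the 9186 genes tested did. At an unadjusted p under 0.05 all 8 were higher in KO, against 4.51% of all genes tested, and 6 of 8 had an unadjusted p under 0.01 (background 1.4%). The median difference of the 8, KO minus WT on the log2(CPM + 1) scale, was 0.64, and that of all genes tested was -0.01. In 0 of 8 did the groups stay apart with no overlap (background 0.359%), and in 4 of 8 at least 5 of the 6 KO mice lay above every WT mouse (background 1.56%). These shares describe the list, whose members were chosen with earlier results of these data known, and no test of the list was made. In whole liver, more cells that express a gene and more RNA per cell cannot be told apart.

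**Figure D1:**
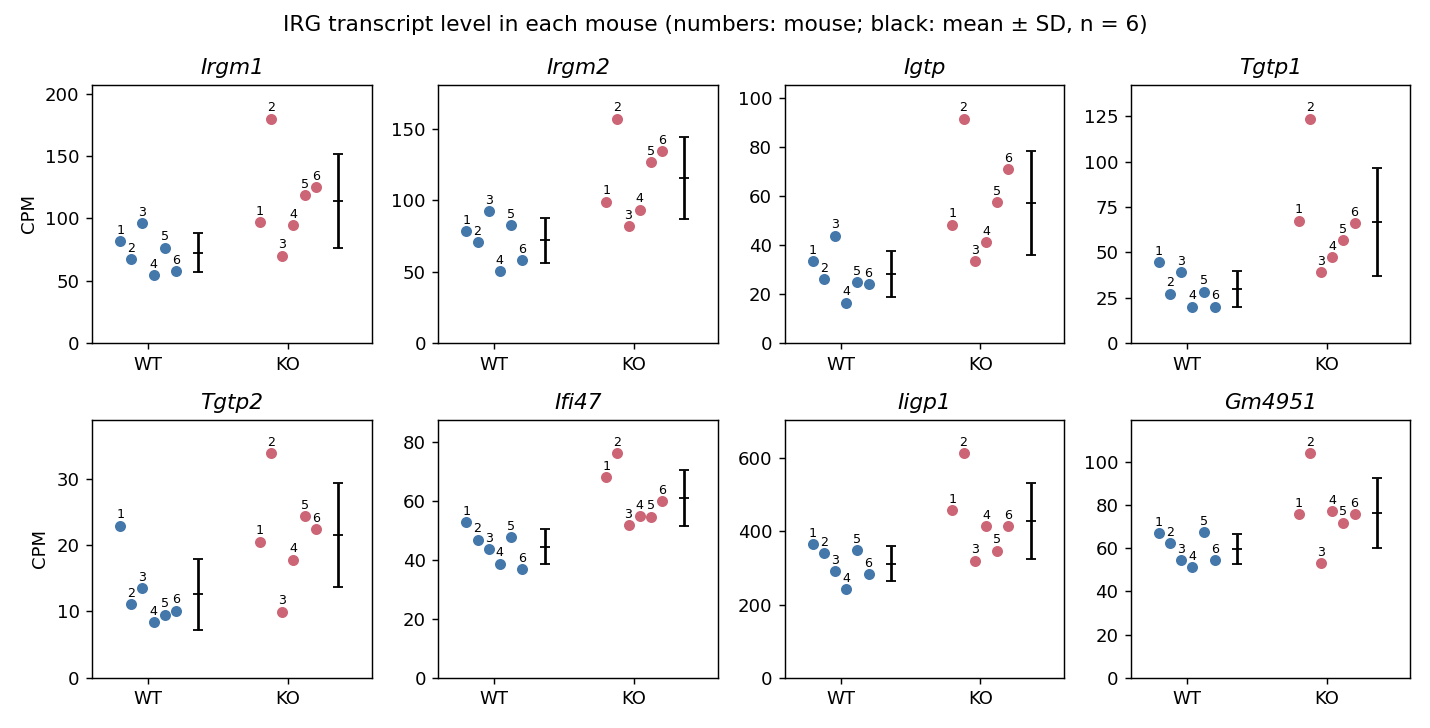
CPM of each IRG gene (vertical axis, from 0) in 6 WT and 6 KO livers; each point is 1 mouse with its number, and black bars give the mean ± SD of 6 mice. KO mouse 2 is the highest of all 12 mice for all 8 genes, and KO mouse 3 lies inside the WT range for all 8.

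Irgm1, a GMS protein of lysosomal and Golgi membranes that takes part in autophagy, ranged from 54.2 to 96.0 CPM in WT (median 72.0) and from 70.2 to 180.2 in KO (median 108). The groups overlapped, with KO mice 3 and 4 under the highest WT mouse. Mean levels were 72.3 ± 15.6 CPM (WT) and 114 ± 37.8 CPM (KO; log2 difference 0.62, SE 0.20, limma adjusted p = 0.251). Irgm2, a GMS protein found largely on the Golgi, ranged from 50.2 to 92.4 CPM in WT (median 74.6) and from 81.8 to 157 in KO (median 113). Of the KO mice 5 lay above every WT mouse and mouse 3 did not. The means were 72.2 ± 15.7 and 116 ± 28.7 CPM (log2 difference 0.66, SE 0.17, adjusted p = 0.162).

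Igtp, the GMS protein of the endoplasmic reticulum and lipid droplets, was the regulator with the widest difference. In WT mice 1 to 6 its levels were 33.5, 26.01, 43.8, 16.4, 24.9 and 23.9 CPM. In KO mice 1 to 6 they were 48.3, 91.5, 33.3, 41.0, 57.4 and 70.9 CPM. The 2 KO mice under the highest WT mouse were 3 and 4, and all 6 lay above the WT median of 25.5. WT mice averaged 28.1 ± 9.42 CPM and KO mice 57.0 ± 21.3 CPM, a ratio of 2.03 (log2 difference 0.98, SE 0.25, adjusted p = 0.153). Within each mouse Igtp stood at 0.301 to 0.474 of the Irgm2 level in WT and 0.407 to 0.581 in KO, ranges that overlap.

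Among the GKS genes the Tgtp pair, T cell-specific GTPases that coat vacuoles early, differed most between the groups. Tgtp1 held 44.6, 27.2, 38.9, 19.97, 28.3 and 20.05 CPM in WT mice 1 to 6, and 67.5, 124, 39.0, 47.4, 56.6 and 66.0 in KO mice 1 to 6. KO mouse 3 alone was not above every WT mouse, and KO mouse 2 stood far above the other KO mice. The means of 29.8 ± 10.02 CPM (WT) and 66.7 ± 29.99 CPM (KO) gave a ratio of 2.24 (log2 difference 1.10, SE 0.26, adjusted p = 0.129). Tgtp2 ranged from 8.43 to 22.9 CPM in WT (median 10.6) and from 9.96 to 33.8 in KO (median 21.5). WT mouse 1 exceeded 4 of the 6 KO mice for Tgtp2, and the means were 12.6 ± 5.35 and 21.5 ± 7.86 CPM (log2 difference 0.72, SE 0.26, adjusted p = 0.328).

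Because reads cannot be assigned firmly within this pair, their sum is also given, which does not depend on how reads were split between them. The counting tool is not known, and if reads matching both genes were dropped, the sum is too low as well. Together they made 28.4 to 67.5 CPM in WT and 49.0 to 158 in KO, and 4 KO mice exceeded the whole WT group. The means of the sum were 42.4 ± 14.9 and 88.2 ± 37.2 CPM, and a limma fit with the pair as 1 gene gave a log2 difference of 1.01 (SE 0.26, adjusted p = 0.157). Tgtp2 took 25.2% to 34.0% of the pair in WT and 20.3% to 30.1% in KO.

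Ifi47, a GKS GTPase, had a smaller difference. It ranged from 36.9 to 52.7 CPM in WT (median 45.1) and from 51.7 to 76.0 in KO (median 57.4). The lowest KO mouse, mouse 3, lay just under the highest WT mouse, and the other 5 lay above all WT mice. WT averaged 44.4 ± 5.93 CPM and KO 60.8 ± 9.40 CPM (log2 difference 0.44, SE 0.11, adjusted p = 0.134).

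The members on chromosome 18 had KO to WT ratios of 1.37 (Iigp1) and 1.28 (Gm4951). Iigp1, the best studied vacuole-attacking IRG and by far the most abundant here, stood at 366, 341, 291, 242, 348 and 284 CPM in WT mice 1 to 6. The KO values, in the same order, were 459, 613, 320, 414, 347 and 415 CPM. KO mice 3 and 5 fell inside the WT range and the other 4 lay above it. WT averaged 312 ± 47.2 CPM and KO 428 ± 104 CPM (log2 difference 0.44, SE 0.14, adjusted p = 0.275). Gm4951, a close relative of Iigp1 whose function is little studied, ranged from 51.5 to 67.6 CPM in WT (median 58.5) and from 53.1 to 104 in KO (median 75.8). KO mouse 3 was again the only one not above every WT mouse, and the means were 59.6 ± 6.99 and 76.4 ± 16.3 CPM (log2 difference 0.33, SE 0.13, adjusted p = 0.348).

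**Figure D2:**
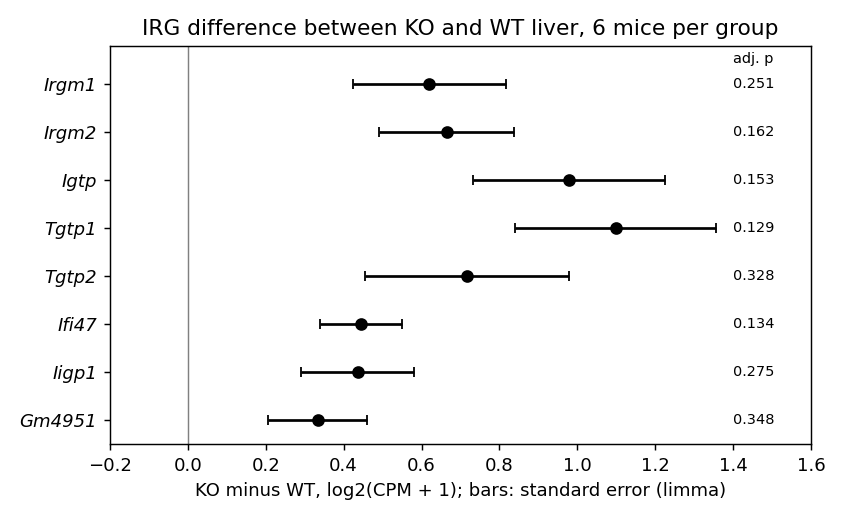
Difference of each IRG gene between KO and WT (horizontal axis, log2(CPM + 1), point) with its standard error from limma (bar); adjusted p-values over 9186 genes stand at the right. Differences run from 0.33 for Gm4951 to 1.10 for Tgtp1, and no adjusted p is under 0.129.

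The order of the genes by level was led by Iigp1 in both groups, once CPM were divided by exon length. In WT Iigp1 stood at 99.8 ± 15.1 CPM per kb, and no WT value of another member reached its lowest (77.4). Irgm1 came next at 31.4 ± 6.79 CPM per kb, followed by Ifi47 (23.6 ± 3.15), Gm4951 (22.5 ± 2.64), Irgm2 (19.6 ± 4.26), Igtp (13.9 ± 4.66), Tgtp1 (10.6 ± 3.55) and Tgtp2 (4.49 ± 1.90). From Irgm1 down, the WT ranges of neighbours overlap, but within a mouse the upper neighbour exceeded the lower in all 6 WT mice for Irgm1 over Ifi47, Irgm2 over Igtp, Igtp over Tgtp1 and Tgtp1 over Tgtp2. Ifi47 exceeded Gm4951 in 4 of 6 WT mice and Gm4951 exceeded Irgm2 in 5 of 6, so the order of these 3 is not firm. In KO, Iigp1 was at 137 ± 33.2 CPM per kb, followed by Irgm1 (49.6 ± 16.4), which exceeded Ifi47 in 6 of 6 KO mice. The neighbours from Ifi47 down to Tgtp1 (23.6 ± 10.6) exceeded each other in 3 to 5 of 6 KO mice. Tgtp2 was last in KO at 7.65 ± 2.80 CPM per kb, its highest mouse (12.0) below the lowest of Tgtp1 (13.8), subject to the sharing of reads within that pair. If reads matching both Tgtp genes were dropped, both stand too low in the order of either group, also against Igtp. This was not tested. Iigp1 made 43.2% to 52.2% of the CPM summed over the 8 genes in WT and 40.5% to 49.3% in KO. The sum over the 8 was 482 to 747 CPM in WT and 659 to 1380 in KO.

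**Figure D3:**
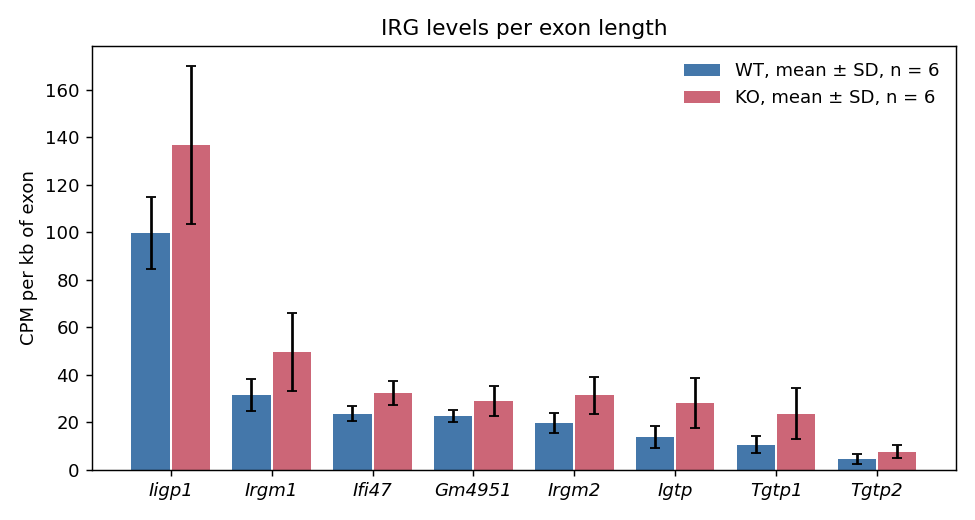
CPM per kb of exon (vertical axis, from 0) for each IRG gene, as mean ± SD of 6 WT and 6 KO mice. Iigp1 stands at 99.8 in WT and 137 in KO, and the means of the other 7 genes lie under 50 in both groups.

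The 8 genes moved together across mice. KO mouse 2 ranked first of 12 for 8 of 8 genes, with a median of 1.24 above the WT mean on the log2(CPM + 1) scale. KO mice 1, 5 and 6 exceeded every WT mouse for 7 of 8 genes each, and KO mouse 4 for 5. KO mouse 3 exceeded every WT mouse for 0 of 8 genes, and its median stood 0.13 above the WT mean. Among WT mice, mouse 4 was the lowest of 12 for 7 genes and mouse 6 for the other one. With group means removed, the 28 pairs of members had Pearson correlations of 0.63 to 0.96 over the 12 mice (median 0.80), highest for Irgm1 with Irgm2 (0.96). The 12 values of a pair share library and scaling, so these correlations are a description.

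**Figure D4:**
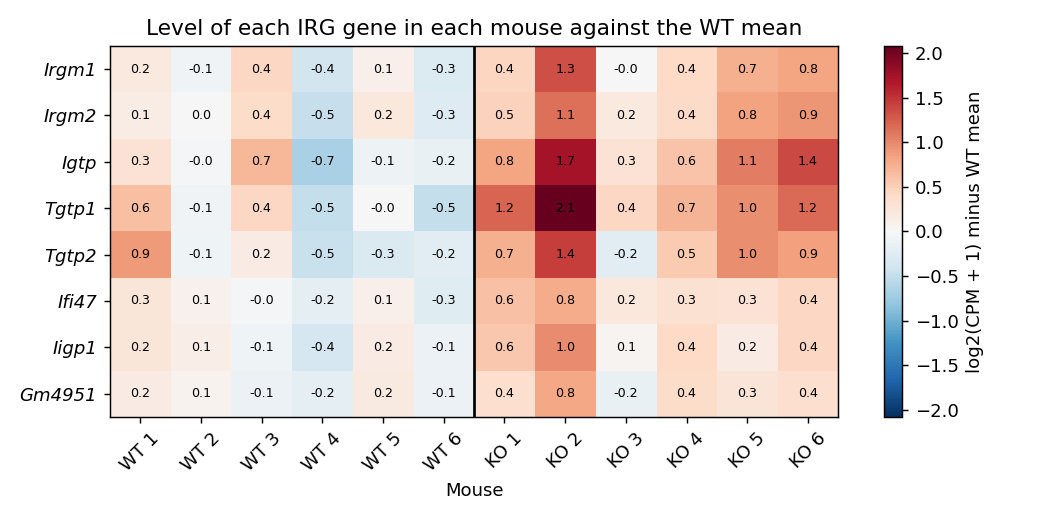
Each cell is 1 mouse (columns) and 1 IRG gene (rows), coloured and labelled by log2(CPM + 1) minus the mean of the 6 WT mice. The column of KO mouse 2 is the darkest red, KO mouse 3 resembles the WT mice, and WT mouse 4 is below the WT mean for every gene.

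KO mice 1 and 3 stand apart from the other KO mice in earlier results of these data, and for the IRG genes they did not behave alike. KO mouse 1 had an IRG sum of 935 CPM, above the highest WT mouse, and KO mouse 3 had 659. Of classical type I interferon targets, Ifit1 was at 33.7 CPM in KO mouse 1 and 16.7 in KO mouse 3, both inside the WT range of 12.8 to 43.3, while the other KO mice held 48.8 to 178. Isg15 was at 23.4 CPM in KO mouse 1 and 14.8 in KO mouse 3, with WT mice at 12.9 to 34.6 and the other KO mice at 37.2 to 85.0. Without KO mice 1 and 3 the members still had 0 of 8 passing limma's adjusted p and 8 of 8 at an unadjusted p under 0.05. Their adjusted p-values then ran from 0.0516 (Igtp and Irgm2) to 0.1805 (Iigp1). Both mice were picked from results of these same data, so the p-values of this fit are a description and not a test. KO mouse 3 was the lowest KO mouse for all 8 genes, so leaving it out raises each KO mean. The number of genes called over the whole table then went from 14 to 89, with the same limit.

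Relatives of the family outside the 8 gave a mixed picture. Of 8 measured relatives, Irgq, Gm12250, Gm12185, Gm5431, Gm4841, F830016B08Rik, 9930111J21Rik1 and 9930111J21Rik2, 7 had positive differences (median 0.33) when all 15648 genes averaging 1 CPM or more were fitted (background 39.2%). Here 0 of 8 passed the adjusted p, where 0.198% of genes did, and 4 were higher at an unadjusted p under 0.05 (background 3.62%). One of these 4, Gm12185 (0.908 and 1.62 CPM), shares 223 exon bases with the more abundant Tgtp1, so it may hold reads of that gene. Gm12250, the Irgb10 gene that RefSeq lists as protein coding and GENCODE as a processed pseudogene, averaged 3.51 ± 1.01 CPM (WT) and 9.73 ± 5.57 CPM (KO), with a log2 difference of 1.136 (adjusted p = 0.0906). KO mouse 2 held 20.1 CPM of it, KO mouse 3 held 3.99 and WT mice held 2.48 to 4.87. Gm5431 had means of 6.51 ± 1.25 and 9.73 ± 2.91 CPM (log2 difference 0.48, adjusted p = 0.272). Irgq, a divergent relative not known to respond to interferon, was the one with a lower KO mean (33.3 ± 4.59 and 29.7 ± 3.71 CPM, adjusted p = 0.645). The list had also held Gm18853, a pseudogene on chromosome 7 whose place in the family is unsure (17.1 ± 3.77 and 35.8 ± 14.3 CPM, adjusted p = 0.129). It was set aside after its values were seen, and the 9 genes with it have a median of 0.37.

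The guanylate-binding proteins (GBPs), larger interferon-induced GTPases that act on the same vacuoles, all had higher KO means as well. The 9 tested had a median difference of 0.68, and all 9 were higher at an unadjusted p under 0.05 (background 4.51%). One passed the adjusted p (background 0.152%), Gbp11, a polymorphic pseudogene on chromosome 5 (10.1 ± 2.13 to 25.8 ± 8.31 CPM, adjusted p = 0.0133). Some GBPs, Gbp11 among them, thus share a chromosome with Hsd17b13, unlike the 8 IRG genes. Any part of sequence near the deletion in their differences was not tested. Gbp9 (22.8 ± 2.03 and 35.7 ± 8.19 CPM, adjusted p = 0.0964) and Gbp5, from the fit at 1 CPM (4.68 ± 0.974 and 7.58 ± 1.55, 0.0843), had higher KO means with no call.

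Among genes that carry the interferon-gamma signal, the receptor chains had lower KO means, the kinases were close to level and Socs1 had a higher KO mean, none with a call. Of 12 tested genes of this list 0 passed (background 0.152%), and the median difference was 0.08. At an unadjusted p under 0.05, 2 were higher and 1 lower (background 4.51% higher and 5.29% lower). Ifng itself is not analysed here. The receptor chain Ifngr1 had a lower KO mean (51.2 ± 4.74 and 44.3 ± 3.57 CPM, log2 difference -0.20, adjusted p = 0.303), as did Ifngr2 (57.3 ± 5.12 and 51.5 ± 7.25, adjusted p = 0.63). Jak1 stood at 184 ± 8.70 and 186 ± 6.38 CPM (adjusted p = 0.948) and Jak2 at 32.0 ± 4.96 and 32.9 ± 2.76 (0.92). Socs1, the feedback inhibitor of the receptor kinases, was low, at 1.22 ± 0.264 and 2.13 ± 0.432 CPM, and its groups did not overlap (background 0.32% in the fit at 1 CPM, where its adjusted p was 0.0829). Irf1, an interferon-induced factor that binds ISRE sites, was at 39.7 ± 6.40 and 47.8 ± 9.11 CPM (adjusted p = 0.567). Nlrc5, the class I transactivator (50.7 ± 9.90 and 63.4 ± 13.9, 0.585), and Irf8, a myeloid factor (33.4 ± 4.77 and 36.1 ± 2.99, 0.759), did not pass either.

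In the type I interferon list 0 of 13 tested genes passed (background 0.152%), and the median was 0.56. At an unadjusted p under 0.05, 8 were higher and 0 lower (background 4.51% higher and 5.29% lower). Irf7, the factor that amplifies type I interferon, was at 85.3 ± 22.4 and 141 ± 52.6 CPM (adjusted p = 0.291), Oas1a, a sensor of double-stranded RNA, at 20.1 ± 3.77 and 31.0 ± 9.64 (0.278), and Ifit1 at 23.9 ± 10.98 and 71.8 ± 57.2 (0.302).

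The conjugation machinery of autophagy, which places IRG proteins on vacuoles, had small differences. Of 11 tested genes 0 passed (background 0.152%) and 0 had an unadjusted p under 0.05 (background 4.51% higher and 5.29% lower). A list this short can hold 0 at such shares. The median difference was 0.02. Atg5, the core ligase subunit, averaged 38.5 ± 1.87 CPM (WT) and 40.1 ± 2.51 CPM (KO; log2 difference 0.06, SE 0.05, adjusted p = 0.795). Gabarapl2 (29.5 ± 1.44 and 31.3 ± 1.11, adjusted p = 0.632) and Map1lc3a (22.4 ± 1.23 and 20.995 ± 1.71, 0.708) had the smallest p-values with it. Of 10 genes of vacuole ubiquitin tagging and mitochondrial quality control 0 passed (background 0.152%), with a median of 0.03. At an unadjusted p under 0.05, 2 were higher (background 4.51%). Both are known to be interferon-inducible, Rnf213, a giant ubiquitin ligase (624 ± 156 and 949 ± 359 CPM, adjusted p = 0.412), and Trim21, an antibody receptor (8.72 ± 1.35 and 11.7 ± 2.89, 0.426).

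**Figure D5:**
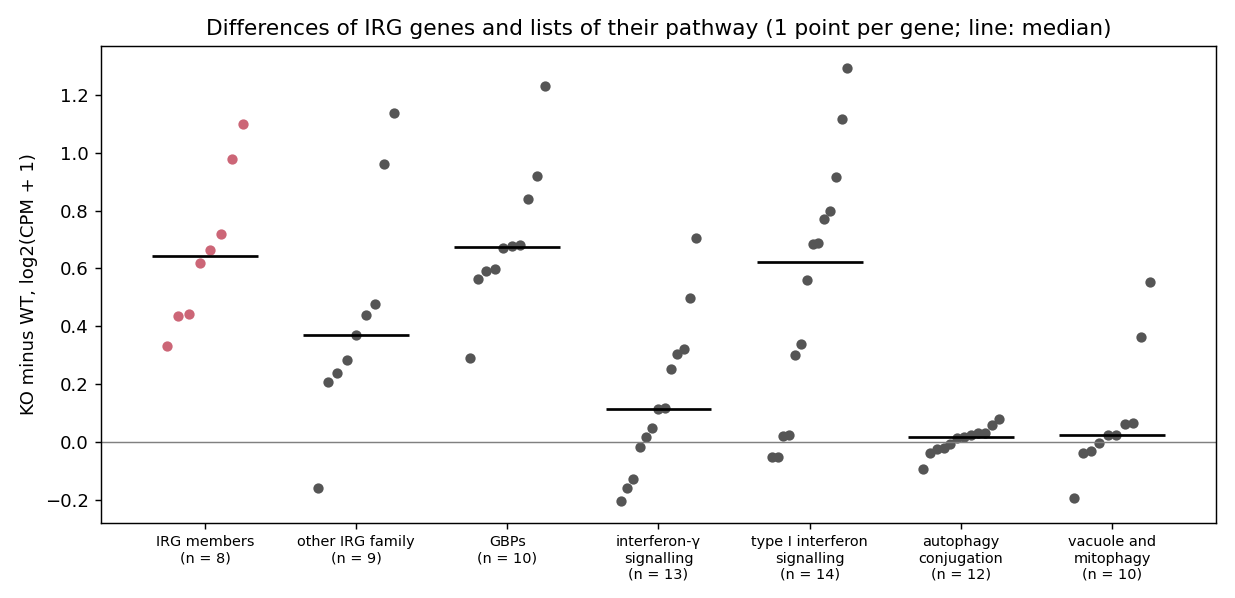
KO minus WT on the log2(CPM + 1) scale (vertical axis), 1 point per gene averaging 1 CPM or more and a line at each list's median; the other IRG list is drawn with Gm18853. The IRG genes (median 0.64) and GBPs (0.67) lie above 0 throughout, and the autophagy genes (0.02) lie close to it.

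Markers of other liver cells, among them the T and NK cells that make interferon-gamma, were summed per mouse beside the IRG values. T and NK cell markers, all 17 measured and none at 0 throughout, summed to 15.2 to 32.1 CPM in WT and 21.96 to 32.3 in KO. In the fit at 1 CPM, 0 of their 10 tested members passed (background 0.198%). At an unadjusted p under 0.05, 3 were higher and 0 lower (background 3.62% higher and 7.64% lower). The effector protease Gzmb was at 0.310 to 0.673 CPM in WT and 0.731 to 1.89 in KO, and the receptor Klrk1 at 2.69 ± 0.551 and 4.13 ± 0.769 (adjusted p = 0.114). Both were named for their small p-values. Gzmb averaged under 1 CPM and lay outside this fit, where 0.32% of genes had groups that did not overlap, higher in KO. Of the 10 tested, 9 had positive differences (background 39.2%), and Prf1 had a lower KO mean (1.19 ± 0.430 and 1.12 ± 0.216 CPM). Kupffer cell markers (10 of 10 measured) summed to 712 to 841 CPM in WT and 832 to 1099 in KO, and recruited macrophage markers (10 of 10) to 1521 to 2863 and 1006 to 1489. Sinusoidal endothelial markers (9 of 9) summed to 444 to 554 and 426 to 603, stellate cell and fibroblast markers (9 of 9) to 1028 to 1744 and 900 to 1146, and B cell markers (5 of 5) to 13.0 to 17.0 and 15.4 to 21.02. Sums weigh the most abundant markers most. In the fit at 1 CPM at an unadjusted p under 0.05, 5 of 9 Kupffer cell markers were higher and 0 lower. Of 10 recruited macrophage markers 7 were lower and 1, Ly6c2, was higher. Of 9 stellate cell and fibroblast markers 7 were lower and 1, Lrat, was higher. Endothelial markers had 2 of 9 higher and 0 lower, and B cell markers 0 of 5 either way. The part of these cell types in the IRG differences was not tested.

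Genes that followed the IRG pattern from mouse to mouse were ranked by their Pearson correlation with the mean standardized level of the 8 members over 12 mice, group means removed. Highest of 9178 genes was Parp9, an interferon-induced partner of the ubiquitin ligase Dtx3l (r = 0.95, Spearman 0.92). Others among the most alike were the galactokinase Galk1 (0.92), Slfn9 (0.92), the pseudogene Gm18852 (0.91), the peroxisomal thiolase Acaa1b (0.91), Gbp7 (0.90), Samd9l (0.90), the death ligand Tnfsf10 (0.90) and the RNA sensor Ifih1 (0.90). Of these, Galk1 (36.9 ± 2.88 and 39.2 ± 4.38 CPM, adjusted p = 0.795) and Acaa1b (505 ± 107 and 517 ± 109, 0.972) had similar means in both groups. For comparison r was 0.77 for Irf7, 0.62 for Irf1, 0.42 for Nlrc5, -0.02 for Jak2 and -0.16 for Irf8. It was -0.24 for Ifngr2, -0.45 for Ifngr1 and -0.66 for Jak1. These are the extremes of many correlations over 12 libraries and are given as a description.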

How the data were processed

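RNA of 12 mouse livers (6 WT, 6 KO) was measured by RNA sequencing. Per the labels' protocols, total RNA was depleted of globin and ribosomal RNA and made into directional libraries, whereas the molecule label says polyA RNA. The submitters' processing notes name mm10, Partek 10.0, STAR 2.7.3a and DESeq2 1.14.1 without roles; the sources used here give no counting tool, annotation or strand setting. CPM values of 20143 genes, each library summing to 1000000, are what the authors deposited, and 20055 IDs had a symbol in GENCODE M21. Per library 71.4% to 76.6% of low values came within 0.02 of a whole number of the smallest steps (4% if evenly spread), too few to rebuild reads for a count test.

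CPM were converted to log2(CPM + 1), which understates changes of low genes. The 9186 genes averaging 10 CPM or more (all 8 members included) were compared with limma 3.58.1 in R 4.3.3 (mean trend, two-sided, Benjamini-Hochberg over all genes tested, threshold 0.05). Genes under that mean take their values from the fit at 1 CPM. Simulated data with known changes were used to check the script. Summaries used Python 3.11.15, and transcript identity BLASTN 2.17.0. Exon length is the union of basic GENCODE transcripts.

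The members and lists were chosen with earlier results of these data known. Named were all 8 members, the 3 genes with the smallest p of a list, a fixed set of signalling genes and the 10 genes most and 5 least like the members; lists of cells are given by sums and selected genes. One gene that this rule names is not reported here. Alternatives covered pseudocount, filter, scaling, weights, mouse number as a block, Tgtp1 and Tgtp2 as 1 gene and each mouse left out.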

Additional observations from a re-analysis of the deposited data

Results flagged for a closer look

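In 3 of 22 groups of 6 mice examined, 1 mouse stood far from the rest by the ratio of its gap to the group's range, where chance gives about 1 in 20. KO mouse 2 stood above the other KO mice for Tgtp1 (124 CPM) and for the sum of Tgtp1 and Tgtp2 (158 CPM). WT mouse 1 stood above the other WT mice for Tgtp2 (22.9 CPM). The Tgtp rows share reads, so these are not independent.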

How the results depend on the processing

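The direction of all 8 IRG genes and the lack of a call held in each alternative that kept them: 0 members passed in 23 of 23 fits, and all members in the fit had an unadjusted p under 0.05 in each. The median difference ranged from 0.52 to 0.75 when 1 mouse was left out (0.64 with all), and from 0.52 to 0.82 elsewhere, lowest with a pseudocount of 10 and highest without KO mice 1 and 3. Smallest adjusted p-values over the alternatives were 0.0516 for Igtp and Irgm2 and 0.0626 for Irgm1 and Tgtp1, all without KO mice 1 and 3. Those mice were picked from results of these same data, so the p-values and calls of that fit are a description. KO mouse 3 was the lowest KO mouse for all 8 genes, so leaving it out raises each KO mean. The largest adjusted p-value of a member ran from 0.308 (Tgtp1) to 0.69 (Gm4951), both without WT mouse 4. With a filter of at least 100 CPM only Iigp1 remained, so no count or median of members was formed. The number of genes called over the whole table (14) was 31 at a mean of at least 1 CPM, 29 with no filter, 4 at a mean of at least 100 CPM, 35 with library weights and 89 without KO mice 1 and 3; the cause was not tested, except that the filters change how many genes are tested. It ranged from 9 (without WT mouse 3) to 25 (without KO mouse 3) when 1 mouse was left out. Same-numbered WT and KO mice deviated together with a correlation over 0.1 in 4 of 6 pairs. The other pairs had -0.07 (number 3) and -0.514 (number 5), and 2 of 6 WT mice matched their own number best. This does not settle whether the numbers pair the mice, and the main fit took them as unpaired. With mouse number as a replicate block 11 genes and 0 members were called, and the median of the members stayed at 0.64.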

Other observations

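Among the 5 tested genes least like the IRG genes from mouse to mouse were Atrn, which encodes the membrane protein attractin, with r = -0.95 over 12 mice after group means were removed, and Klb, the co-receptor of the hormone FGF21, with r = -0.94. Within the KO mice alone r was -0.998 for Atrn and -0.93 for Klb. Neither passed the comparison of the groups, with Atrn at 120 ± 12.6 CPM (WT) and 129 ± 10.7 CPM (KO; limma adjusted p = 0.754), and Klb at 28.1 ± 3.50 and 31.4 ± 4.69 (0.711). The others were Sars (r = -0.90), Xpot (-0.88) and Ctsl (-0.86). They are the lowest of 9178 correlations, so values this far from 0 were selected.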
